A study of Rattus norvegicus with 6 samples.

Results

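The miRNAs miR-143 and miR-145 were followed in the testes of diabetic and normal rats. The members were the entries of the deposited miRNA table whose names carry either number, which gave 4 of 721 listed miRNAs: rno-miR-143-3p, rno-miR-143-5p, rno-miR-145-5p and rno-miR-145-3p. All 4 were among the 578 miRNAs that passed the filter on low values. Small RNA was measured in testicular tissue of Sprague-Dawley rats, with 3 libraries labelled as STZ-induced diabetes and 3 labelled as normal. Streptozotocin (STZ) kills pancreatic beta cells, the source of insulin, and the tissue was taken 8 weeks after its injection. The methods of the study place a high-fat diet before the STZ injection and state that control rats received citrate buffer. They do not say whether the control rats had that diet, so diet and STZ cannot be told apart in this comparison. The rats were adult males, with no age in weeks given. The libraries held between 305476 and 549446 miRNA reads, and p-values below measure only the spread between these libraries, which the labels call replicates without saying how they were obtained.

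A miRNA is cut from the stem of a folded RNA, the hairpin, and either side of the stem can yield a mature strand, named 5p or 3p. The mature strand guides a silencing complex to messenger RNAs, mainly by pairing with the seed, bases 2 to 8 from its 5′ end. miR-143 and miR-145 are known as miRNAs of smooth muscle, where they are made from a shared primary transcript and favour the contractile over the proliferative state. In the testis, contractile cells include the peritubular myoid cells, which wrap the seminiferous tubules, and the smooth muscle of the vessel walls. Whole tissue was sequenced, so fewer cells of a type and less RNA per cell cannot be told apart. The table holds no messenger RNA and no independent marker of peritubular cells, so the cell type that carried these miRNAs was not tested.

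The mature strands are shown because each seed decides which messenger RNAs a strand can pair with. All 4 names matched an entry in RefSeq (build GRCr8), and the seed is in capitals.
miR-143-3p: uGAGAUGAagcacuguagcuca
miR-145-5p: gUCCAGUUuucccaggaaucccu
miR-143-5p: gGUGCAGUgcugcaucucugg
miR-145-3p: gGAUUCCUggaaauacuguuc

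The 4 seeds differed from each other. Of 539 known miRNAs in the table, 492 had a mature sequence in that source, and 0 of these shared a seed with any of the 4 strands. Differences were counted base by base from the 5′ end without gaps, and any difference in length was added. On this count the closest listed miRNA to miR-143-3p, miR-322-3p, had 9 differences. The closest to miR-145-5p, miR-205, had 12. None of the 4 thus had a near-identical copy by this count among the miRNAs with a sequence, though a shifted copy would be missed.

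The hairpins show from which side the reads came, and their mature strands are in capitals.
Mir143: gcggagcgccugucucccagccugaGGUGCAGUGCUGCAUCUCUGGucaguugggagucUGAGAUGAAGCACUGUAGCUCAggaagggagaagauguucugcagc
Mir145: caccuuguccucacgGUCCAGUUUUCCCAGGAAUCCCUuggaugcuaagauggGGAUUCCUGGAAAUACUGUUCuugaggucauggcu

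In RefSeq the Mir143 hairpin lies at chr18:57371349-57371453 and the Mir145 hairpin at chr18:57369983-57370070, both on the minus strand of GRCr8. They are separated by 1278 bases with 0 annotated genes wholly between them. In transcription order Mir143 comes before Mir145. Both lie within the span of 1 annotated gene, the long noncoding RNA Carmn, known as their host gene. The abundant strand was the second one of the Mir143 hairpin (3p) and the first one of the Mir145 hairpin (5p).

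The 4 strands differed widely in abundance, and their order was the same in each of the 6 libraries. Levels are given in CPM, which puts a miRNA's share of the reads of its library on a common scale. Over the 6 libraries miR-143-3p averaged 84233 CPM, miR-145-5p 3817, miR-143-5p 569.95 and miR-145-3p 58.7. By mean level they ranked 2, 38, 113 and 228 in the table. Comparisons of level between different miRNAs are per molecule counted and can also reflect how well each strand is captured in the library, which was not tested.

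**Figure D1:**
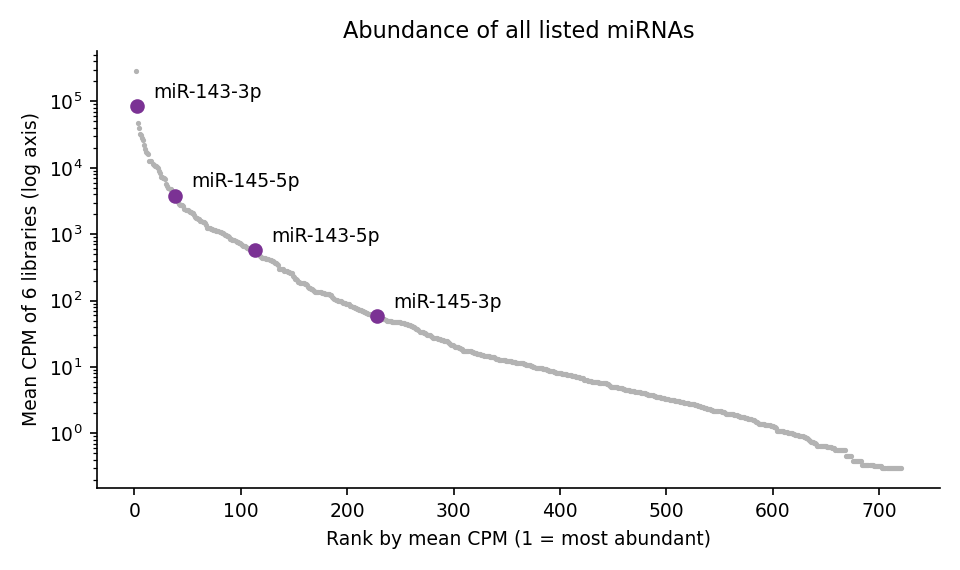
Mean CPM over the 6 libraries (log axis) against rank for all listed miRNAs, in grey, with the 4 miR-143 and miR-145 strands in purple. miR-143-3p holds rank 2, and the other 3 strands stand at ranks 38, 113 and 228.

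rno-miR-143-3p is the guide strand of Mir143 and held 227036 reads in total. In replicates 1, 2 and 3 the diabetic testes held 85250.6, 81709.7 and 91164.6 CPM of it and the normal testes 79750.4, 93052.7 and 74472.0 CPM. Both the highest and the lowest library were normal, so the diabetic values lay inside the normal range. The group means were 86042 ± 4777 CPM in diabetic and 82425 ± 9575 CPM in normal testes (SD, n = 3 each).

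The log2 change of miR-143-3p was 0.07 with a standard error of 0.09 on the log2(CPM + 1) scale, or 1.05-fold (95% interval 0.916 to 1.20, adjusted p = 0.810 in limma). The exact permutation test gave p = 0.5, where the smallest possible p for 3 against 3 is 0.1. The change was smaller than the spread between replicates. Its sign turned without normal replicate 3, to -0.0032, and with upper-quartile factors, to -0.04. With those factors the median change over the whole table shifted as well, from 0.0046 to -0.10.

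miR-143-3p took 8.53%, 8.17% and 9.12% of reads in the diabetic libraries and 7.98%, 9.31% and 7.45% in the normal ones. The Wilson 95% interval of the lowest of these was 7.38% to 7.52%, so counting error was small beside the differences between libraries. It held rank 2 in each library. The rank above belonged to miR-34c-5p, a germ-cell miRNA, which was higher in 6 of 6 libraries. The rank below by mean level was miR-21-5p, a widely expressed miRNA, and miR-143-3p was 1.48 to 2.05 times as high as miR-21-5p within each library.

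miR-145-5p is the guide strand of Mir145 and held 10374 reads in total. Its level was 3584.6, 3658.1 and 4176.9 CPM in the diabetic libraries and 3637.7, 3715.0 and 4127.3 CPM in the normal ones. The groups overlapped almost completely, with means of 3807 ± 323 and 3827 ± 263 CPM (SD, n = 3 each). Its log2 change was -0.0087 (standard error 0.10), or 0.994-fold (95% interval 0.856 to 1.15, adjusted p = 0.974 in limma, exact permutation p = 0.8). The sign of this value turned in 1 of 12 other settings and in 3 of 6 fits that left out 1 library.

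miR-143-5p is the less abundant strand of Mir143 and held 1551 reads. It was at 520.5, 521.4 and 584.2 CPM in diabetic and at 573.4, 609.0 and 611.2 CPM in normal libraries. The groups overlapped by diabetic replicate 3 alone, which lay above normal replicate 1. The means were 542 ± 36.5 and 598 ± 21.2 CPM (SD, n = 3 each), and its log2 change was -0.14 (standard error 0.13, 95% interval -0.43 to 0.14, adjusted p = 0.795 in limma, exact permutation p = 0.2).

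miR-145-3p was the scarcest of the 4, with 162 reads over the 6 libraries. Its 36.0, 69.9 and 89.2 CPM in the diabetic libraries stood for 11, 26 and 49 reads, and its 68.0, 32.5 and 56.6 CPM in the normal libraries for 30, 16 and 30 reads. The lowest and second lowest library came from different groups. The means were 65.0 ± 26.9 and 52.4 ± 18.1 CPM (SD, n = 3 each), with a log2 change of 0.28 and a standard error of 0.40 (adjusted p = 0.831 in limma, exact permutation p = 0.5). The 95% interval ran from 0.672-fold to 2.18-fold, so a change within that range could not be told from no change. Without diabetic replicate 1 the log2 change was 0.65, and without normal replicate 2 it was -0.03.

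**Figure D2:**
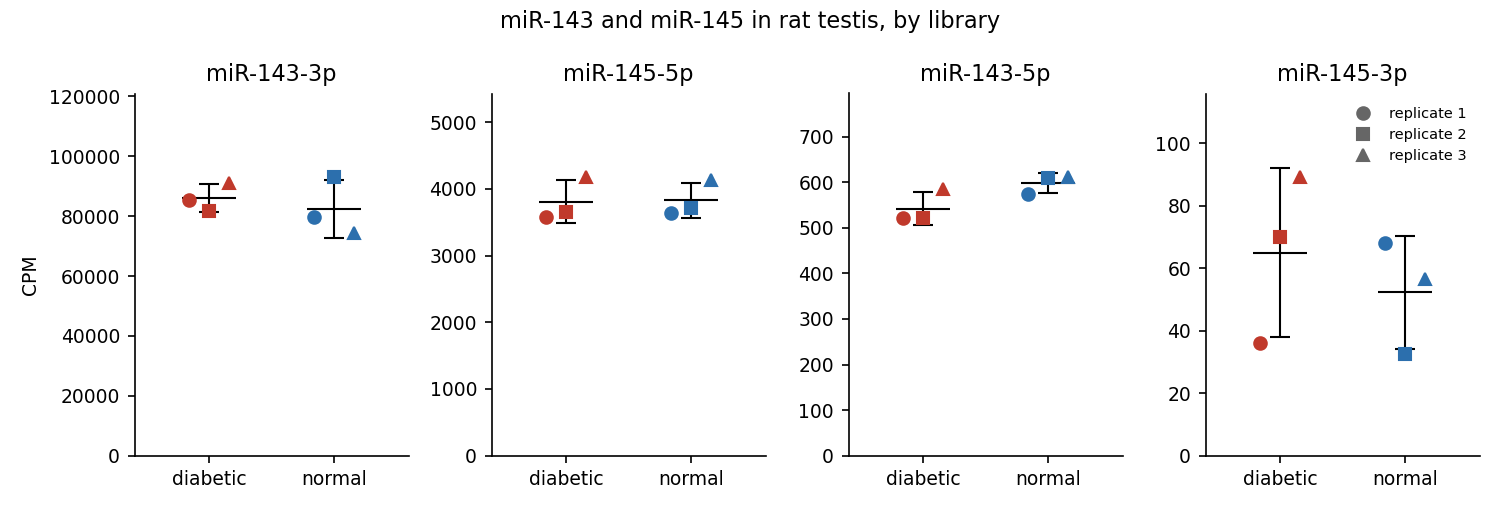
CPM of each strand (linear axes from 0) in the 3 diabetic (red) and 3 normal (blue) libraries. Horizontal bars are group means, error bars are SD, and marker shapes give the replicate number. The groups overlap in all 4 panels, and miR-145-3p has the widest relative spread.

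Of the 4 strands 0 had an adjusted p under 0.05 in limma, where 0 of 578 miRNAs (0%) were called. At an unadjusted p under 0.05 there were again 0 of 4, against 51 of 578 (8.82%). CPM values did not overlap between the groups for 0 of 4 strands, against 86 of 578 miRNAs (14.9%). The DESeq2 Wald test and the edgeR quasi-likelihood test on recovered reads also called 0 of 4, with 0 of 4 at an unadjusted p under 0.05 in each. Of the 4 changes 2 were above and 2 below 0, with a median of 0.03 beside 0.0046 over all tested miRNAs.

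The pair was also summed, since both hairpins come from 1 host gene. The summed share of reads was 8.94%, 8.60% and 9.60% in diabetic and 8.40%, 9.74% and 7.93% in normal libraries. As for miR-143-3p alone, which made up 93.95% to 95.5% of it, the normal libraries spanned the diabetic ones. The difference was 0.355 percentage points (9.05% ± 0.511 against 8.69% ± 0.941, SD, n = 3 each, exact permutation p = 0.6), and it moved to -0.0264 without normal replicate 3.

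Ratios within a library do not depend on how libraries are scaled, so the strands were compared with each other next. miR-143-3p outnumbered miR-143-5p by 164, 157 and 156 to 1 in the diabetic libraries and by 139, 153 and 122 to 1 in the normal libraries. Every diabetic library was thus above every normal one. On the log2 scale the ratio was 7.31 ± 0.04 in diabetic and 7.10 ± 0.16 in normal testes (SD, n = 3 each), a difference of 0.21 with an exact permutation p of 0.1, the smallest this design allows.

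The gap between the groups in this arm ratio was narrow, from 153 to 156 to 1. Without normal replicate 3 the difference was 0.12 (exact permutation p = 0.1). Both strands reached 10 reads in every library for 50 hairpins, and among these the 3p over 5p ratio did not overlap between the groups for 6 (12%), the Mir143 hairpin included. By size of the difference Mir143 stood at place 19 of these 50, where the median absolute difference was 0.17. The counts behind the minor strand were 159 to 324 reads, and counting error alone comes to 6.45% of the level of miR-143-5p.

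Within Mir145 the abundant 5p strand outnumbered the 3p strand by 99.5, 52.3 and 46.8 to 1 in the diabetic libraries and by 53.5, 114 and 72.9 to 1 in the normal libraries. The highest ratio in each group was more than 1.5 times the lowest, and the groups overlapped. The log2 ratio was 5.97 ± 0.59 in diabetic and 6.26 ± 0.55 in normal testes (SD, n = 3 each, difference -0.29, exact permutation p = 0.5).

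The ratio of the guide strands, miR-143-3p over miR-145-5p, was 23.8, 22.3 and 21.8 in the diabetic and 21.9, 25.05 and 18.0 in the normal libraries. The diabetic ratios again lay inside the normal range. The log2 ratio was 4.50 ± 0.06 in diabetic and 4.42 ± 0.24 in normal testes (difference 0.08, SD, n = 3 each, exact permutation p = 0.8), and without normal replicate 3 the difference was -0.05.

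**Figure D3:**
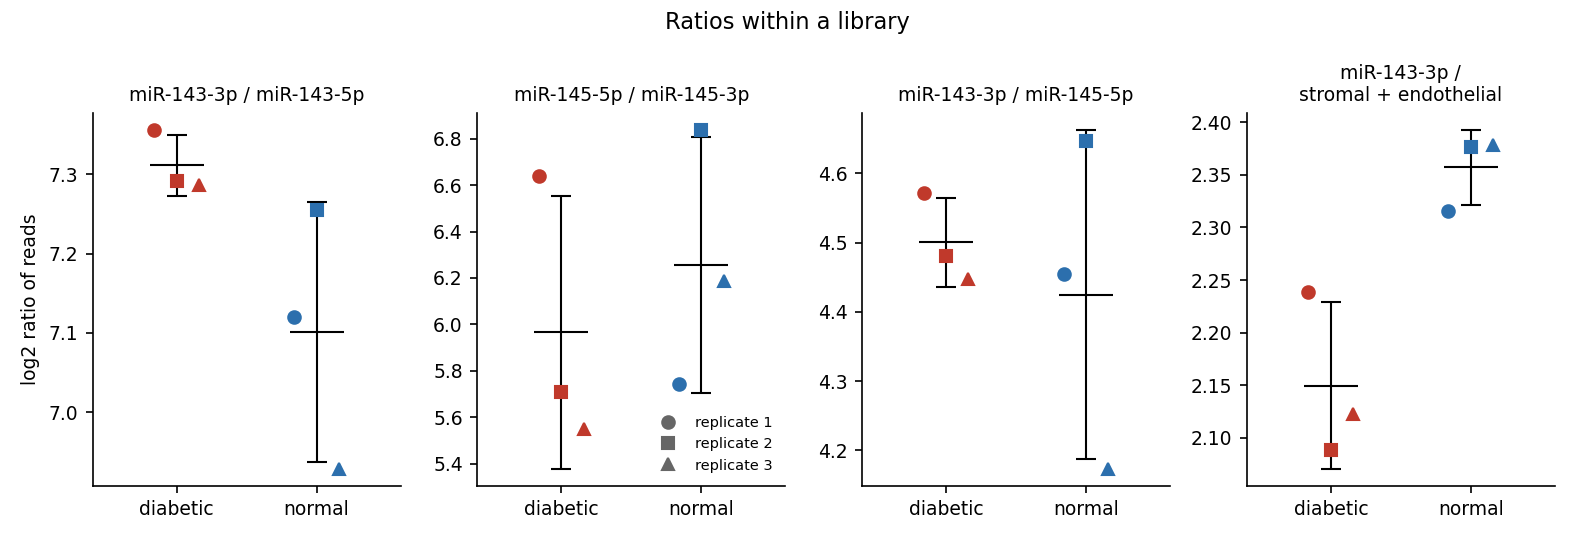
Log2 ratios of reads within each library for the Mir143 strands, the Mir145 strands, the guide strands, and miR-143-3p over the summed stromal and endothelial miRNAs. Red is diabetic, blue is normal, bars are mean and SD, and the axes do not start at 0. The groups are apart in the first and the last panel, each at the smallest exact p of 0.1, and overlap in the other 2.

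No relation between the strands over the 6 libraries passed its test. Across 6 pairs of members, Pearson's r of log2(CPM + 1) ran from -0.25 to 0.62 and Spearman's rho from -0.20 to 0.77. The highest was between miR-145-5p and miR-143-5p (r = 0.62, exact permutation p = 0.154, rho = 0.77, exact permutation p = 0.103, adjusted p over the 6 pairs = 0.867 and 0.617), and r without the 2 farthest libraries was 0.75. For the guide strands r was -0.07 (exact permutation p = 0.899, adjusted p = 0.976, rho = 0.14, exact permutation p = 0.803, adjusted p = 0.919). It became 0.83 without normal replicates 2 and 3, so the pooled value rested on those libraries. That left the 3 diabetic libraries and normal replicate 1, too few to show a relation. Neither this r nor the 0.75 above was tested. With 3 libraries a group these relations could not be recomputed within a group.

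The strands also differed in how much they varied between libraries of 1 group. Among the 257 miRNAs that reached 10 reads in each library, the within-group SD of log2(CPM + 1) was 0.13 for miR-143-3p, 0.11 for miR-145-5p and 0.08 for miR-143-5p, below the median of 0.21. miR-145-3p had 0.61, place 253 of 257 from the smallest. Over all libraries the coefficient of variation was 8.37% for miR-143-3p, where counting error gives 0.527%, and 36.9% for miR-145-3p, where counting error gives 21.6%.

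The level of miR-143-3p was set beside that of miR-34c-5p, the germ-cell miRNA that took the most reads. miR-34c-5p made up 29.2%, 29.5% and 27.4% of reads in diabetic and 30.3%, 26.8% and 31.7% in normal libraries. The library with the most miR-34c-5p, normal replicate 3, had the least miR-143-3p, and the library with the least, normal replicate 2, had the most. The order of the 6 libraries was exactly opposite for both (Pearson's r = -0.99, Spearman's rho = -1.0 over the 6 libraries, r = -0.98 without those 2), and among 256 miRNAs miR-34c-5p was the one most opposed to miR-143-3p. This is a description, as it was singled out after the values were seen and both shares have the same total.

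Between the extreme libraries the share of reads left for other miRNAs differed 1.07-fold and the share of miR-143-3p 1.25-fold. As a share of the reads other than miR-34c-5p, miR-143-3p differed 1.17-fold, from 10.9% to 12.7%. On that share too, the order of the 6 libraries was exactly opposite to that of miR-34c-5p (Pearson's r = -0.987, Spearman's rho = -1.0). This is again a description, and what gave rise to the relation was not tested. The log2 ratio of miR-143-3p over miR-34c-5p was -1.74 ± 0.13 in diabetic and -1.85 ± 0.29 in normal testes (SD, n = 3 each, difference 0.11, exact permutation p = 0.6). It turned to -0.0122 without normal replicate 3.

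**Figure D4:**
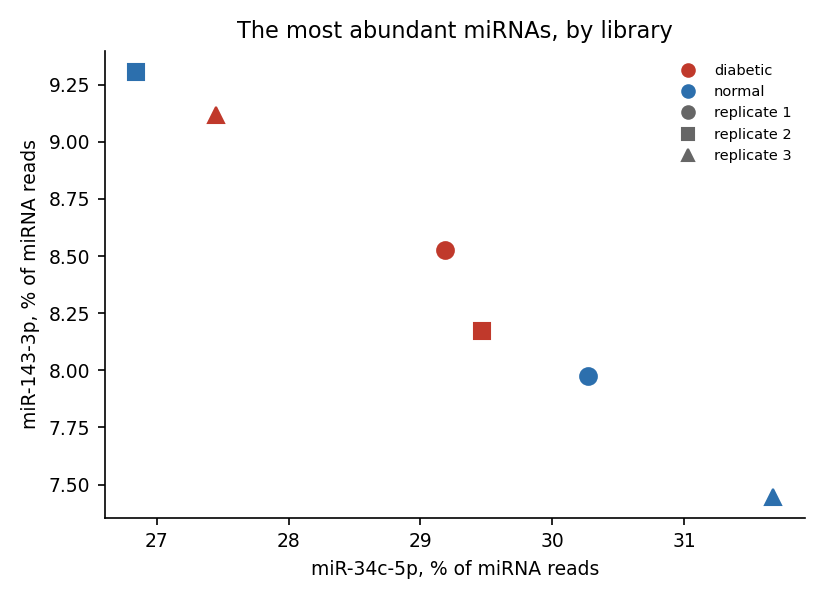
Share of miRNA reads taken by miR-143-3p against that taken by miR-34c-5p, 1 point for each of the 6 libraries. Red is diabetic, blue is normal, shapes give the replicate, and neither axis starts at 0. The points fall in opposite order, from normal replicate 2 (26.8% and 9.31%) to normal replicate 3 (31.7% and 7.45%), with the diabetic libraries between them.

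The miRNAs most like miR-143-3p over the 6 libraries were picked by Pearson's r among those with 10 reads or more in each. They were miR-450b-5p (r = 0.94, rho = 0.94), miR-296-3p (r = 0.91, rho = 0.94), miR-130a-3p (r = 0.88, rho = 0.83), miR-434-3p (r = 0.87, rho = 0.94) and miR-1b (r = 0.85, rho = 0.71). Without normal replicates 2 and 3 their r was 0.90, 0.77, 0.97, 0.64 and 0.72. These values are a description, as the 5 were picked as the highest of 256. The second set of r reuses libraries that picked them and is no separate support. Their mean levels ran from 48.0 to 949.9 CPM, far under that of miR-143-3p. In this order miR-143-5p came at place 162, miR-145-5p at 172 and miR-145-3p at 194 of 256.

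miR-1b is shown beside miR-1-3p because it differs from this muscle miRNA by 1 base, counted from 1 at the 5′ end and written from miR-1-3p to miR-1b (G17A), which is in capitals.
miR-1-3p: uggaauguaaagaaguGuguau
miR-1b: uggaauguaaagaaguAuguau

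miR-1b held 2574 reads and miR-1-3p 43. How reads were divided between such near-identical entries was not stated, so both levels are uncertain.

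Other miRNAs that act on the state of smooth muscle were taken as a list, with 14 entries, of which 12 were tested. Of these 0 had an adjusted p under 0.05 in limma. At an unadjusted p under 0.05 there were 3, 2 higher and 1 lower in diabetes, beside 51 of 578 (8.82%) in the whole table. 1 of the 2 higher, miR-146a-3p, passed the filter on low values only through its diabetic libraries. The list's median log2 change was 0.22, beside 0.0046 over all tested miRNAs. That median includes miR-146a-3p, so it was not read as a shift of the list. miR-221-3p, known to promote smooth muscle proliferation, was at 1342.2, 1521.3 and 1257.6 CPM in diabetic and at 1108.3, 1147.0 and 1086.5 CPM in normal libraries. The groups did not overlap (log2 change 0.30, standard error 0.12, adjusted p = 0.406 in limma, exact permutation p = 0.1). Its partner miR-222-3p averaged 144.6 ± 30.0 CPM in diabetic and 110.4 ± 18.6 CPM in normal testes (SD, n = 3 each, log2 change 0.38, adjusted p = 0.726 in limma), and those groups overlapped.

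For miR-21-5p, which promotes smooth muscle growth, all diabetic values lay below the normal ones, with means of 43355 ± 2740 and 50194 ± 3043 CPM (SD, n = 3 each, log2 change -0.21, adjusted p = 0.406 in limma). miR-146a-3p was the third with an unadjusted p under 0.05, on 5, 3 and 3 reads against 0, 2 and 0. Its normal libraries held 0.0, 4.1 and 0.0 CPM, so it was tested only because its diabetic values were higher. Its call and direction thus say nothing about the list. Among the list's abundant members, miR-26a-5p and miR-24-3p had log2 changes of 0.08 and -0.10 (adjusted p = 0.800 and 0.809 in limma). Of the classical muscle miRNAs on the list, miR-1-3p was at 7.5 to 36.0 CPM (4 to 11 reads) and miR-133a-3p at 7.5 to 22.9 CPM (4 to 8 reads). miR-1b, 1 base from miR-1-3p, was not on the list and averaged 949.9 CPM. How scarce miR-1 was is thus uncertain, as the division of reads between these entries was not stated.

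Marker miRNAs of other cells were set beside the pair. The stromal list (miR-199a-3p, miR-199a-5p and miR-214-3p) summed to between 6059 and 7496 CPM in diabetic and between 5657 and 6833 CPM in normal libraries, and 0 of 3 had an unadjusted p under 0.05. The endothelial list, both strands of miR-126a, summed to between 11722 and 13783 CPM in diabetic and between 8662 and 11086 CPM in normal libraries. miR-126a-3p was at 10747.2, 10361.5 and 12523.5 CPM against 8141.2, 9933.2 and 7337.8 CPM. Its groups did not overlap and its unadjusted p was under 0.05 (log2 change 0.41, standard error 0.11, adjusted p = 0.348 in limma, exact permutation p = 0.1). For miR-126a-5p, the other strand, the groups overlapped (log2 change 0.13, adjusted p = 0.795 in limma, exact permutation p = 0.3).

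The ratio of miR-143-3p to these stromal and endothelial miRNAs together was lower in each diabetic library than in any normal one. It outnumbered their sum by 4.72, 4.25 and 4.35 to 1 in diabetic and by 4.98, 5.19 and 5.20 to 1 in normal libraries. The log2 ratio was 2.15 ± 0.08 in diabetic and 2.36 ± 0.04 in normal testes (SD, n = 3 each, difference -0.21, exact permutation p = 0.1, the smallest possible). Against the stromal miRNAs alone the difference was -0.03 (exact permutation p = 0.7), and against miR-126a alone -0.31 (exact permutation p = 0.1), both computed after the values were seen.

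The remaining lists had 0 members with an adjusted p under 0.05 in limma, as had the whole table. The whole-table shares to set beside them are 8.82% at an unadjusted p under 0.05 and 14.9% with groups that did not overlap. Groups did not overlap for 2 of 7 germ-cell, 1 of 2 Sertoli cell, 2 of 6 leukocyte and 1 of 6 epithelial miRNAs. For striated muscle (0 of 6) and erythrocyte (0 of 4) miRNAs all overlapped. Those apart were miR-34b-3p, miR-449c-3p, miR-202-5p, miR-142-3p, miR-223-5p and miR-205. miR-34b-3p was lower in diabetes (log2 change -0.15, adjusted p = 0.724 in limma). miR-449c-3p and miR-223-5p held at most 3 reads a library and passed the filter only through their normal libraries. The germ-cell list (7 tested of 8) summed to between 311960 and 333905 CPM in diabetic and between 307045 and 356042 CPM in normal libraries, with 0 at an unadjusted p under 0.05. The Sertoli cell list (2 of 2) summed to between 4102 and 4467 against between 3262 and 3693 CPM, where miR-202-5p was higher at an unadjusted p under 0.05, with groups that did not overlap (log2 change 0.30, adjusted p = 0.348 in limma), and miR-202-3p had a log2 change of -0.18 (adjusted p = 0.809). The striated muscle list (6 of 7) summed to between 562 and 740 against between 523 and 639 CPM. Most of it was miR-499-5p at 589 ± 80.0 and 562 ± 57.9 CPM (SD, n = 3 each). miR-1b, at 949.9 CPM on average, was not on that list. Blood cell miRNAs were low beside the pair. The erythrocyte list (4 of 4) summed to between 544 and 782 against between 678 and 741 CPM. The leukocyte list (6 of 6) summed to between 543 and 691 against between 632 and 794 CPM, with 2 members higher and 4 lower. Over all 578 tested miRNAs 292 were higher and 286 lower. The 4 lower include miR-223-5p, which was tested only because of its higher normal values. They also include miR-223-3p, on 5, 0 and 0 reads against 0, 3 and 4. Neither of these directions was read as a result. Among the leukocyte members miR-142-3p was lower at an unadjusted p under 0.05 (log2 change -0.45, adjusted p = 0.348 in limma). The 2 higher were miR-150-5p and miR-155-5p (log2 changes 0.20 and 0.35, adjusted p = 0.795 and 0.800 in limma). The epithelial list (6 of 9) summed to between 107.4 and 140.7 against between 131.5 and 158.3 CPM, with miR-200c-3p higher (log2 change 1.63, adjusted p = 0.492 in limma) and miR-205 lower (log2 change -1.61, adjusted p = 0.348 in limma) at an unadjusted p under 0.05. Both are named for their values and rest on 1 to 8 and 2 to 24 reads a library.

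**Figure D5:**
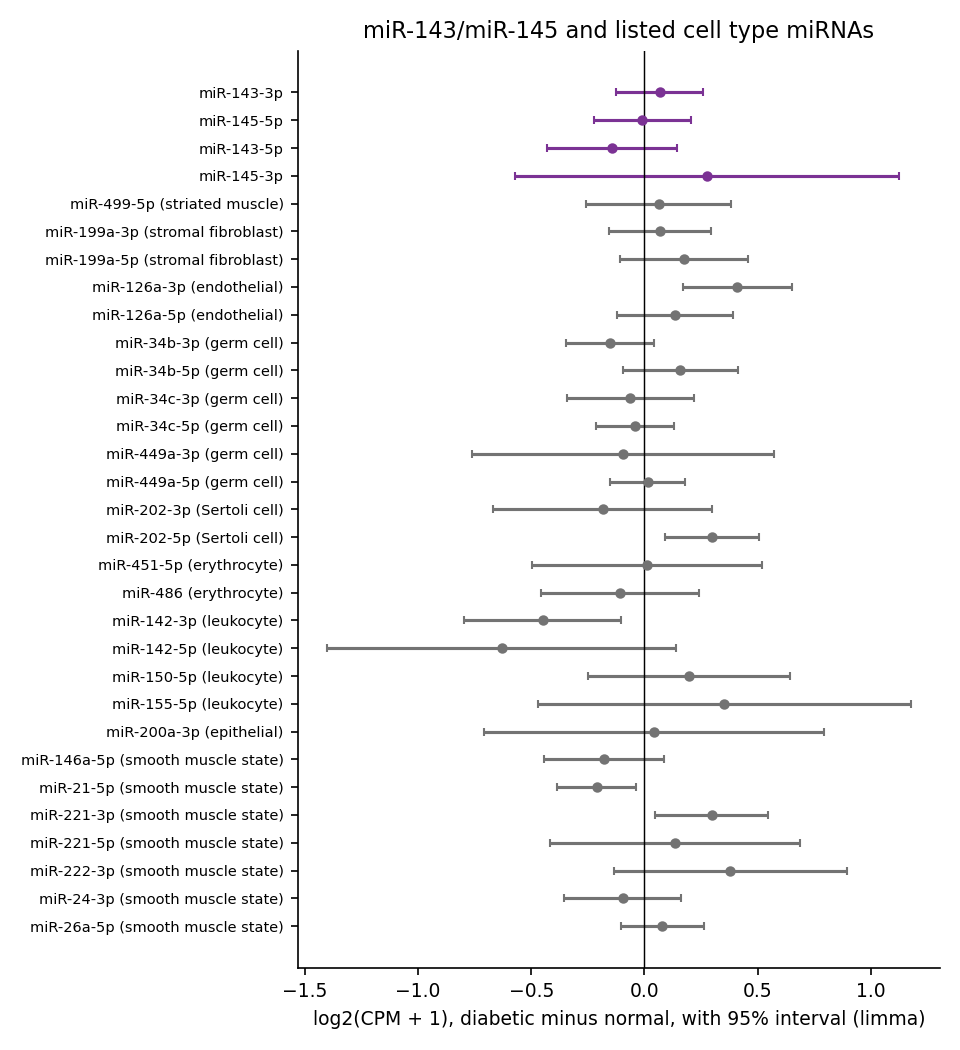
Log2 change (diabetic minus normal, on the log2(CPM + 1) scale) with its 95% limma interval for the 4 strands, in purple, and for list members with at least 10 reads in every library, in grey. The intervals of all 4 strands include 0, and that of miR-145-3p is the widest of the 4.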

How the data were processed

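Small RNA libraries of rat testis, 3 diabetic and 3 normal, were compared, grouped by their labels. Per the study's methods, the authors trimmed single-end reads, counted small RNAs, annotated miRNAs with miRBase families and expressed them as CPM. The deposited CPM values carry 1 decimal, and their headings call them TPM. The submitters' processing notes name Bowtie 0.12.2, HISAT2 2.0, StringTie 1.3.0 and the mouse build mm8, without roles, and the miRBase release is not given in the sources used here. The labels' extraction text describes an mRNA library, whereas the series design and the methods describe miRNA sequencing.

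Whole reads were recovered from the CPM values as the smallest library total that made 100% of values whole within 0.0501 CPM. Depth intervals cover counting error only, as no molecular identifiers were stated. The main test was limma 3.58.1, run in R 4.3.3 with a trended prior variance on log2(CPM + 1). It took miRNAs that reached 1 CPM in 3 or more libraries, with Benjamini-Hochberg adjustment over all of them, since the values are normalized. The study's own tool was DESeq, and DESeq2 1.42.0 and edgeR 4.0.16 were run on recovered reads as alternatives. Single values were compared with two-sided exact permutation tests (Python 3.11.15). Tests were checked on simulated data. Sequences and places came from RefSeq GRCr8.

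The members and lists were chosen with earlier results of these data known. The named miRNAs were the 4 members, the 5 most correlated with miR-143-3p, its neighbours by mean level, listed markers and miRNAs sharing a seed.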

Additional observations from a re-analysis of the deposited data

How the results depend on the processing

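Across 80 comparisons with other settings, 78 kept their direction and their side of the threshold and 2 turned direction. With 1 library left out, 57 of 66 did and 9 turned. This agreement was partly fixed in advance. The ratios and the share had exact tests, which cannot fall under 0.1 and so could not cross 0.05. Settings that change only the filter, the variance trend or the replicate block leave a log2 change as it is. The ratios to stromal or endothelial miRNAs alone, which are different measures, were counted as kept (-0.0346 and -0.3108 against -0.2073). The count of members with an adjusted p under 0.05 was 0 in all of these alternatives. The log2 change of miR-143-3p was -0.0403 with upper-quartile factors, and that of miR-145-5p was 0.0007 with reads thinned to the smallest library, and the cause was not tested. Without 1 library in turn, miR-143-3p ranged from -0.0032 to 0.16, miR-145-5p from -0.0774 to 0.0469 and miR-145-3p from -0.0275 to 0.65. The summed share ranged from -0.0264 to 0.881 percentage points, the Mir145 strand ratio from -0.63 to 0.0006, miR-143-3p over miR-145-5p from -0.0501 to 0.19 and miR-143-3p over miR-34c-5p from -0.0122 to 0.27. Normal replicate 3 turned 5 of these 9 results (miR-143-3p, miR-145-5p, the summed share and the ratios to miR-145-5p and miR-34c-5p). Normal replicate 2 turned miR-145-3p and the Mir145 strand ratio, and diabetic replicates 1 and 2 turned miR-145-5p. The Mir143 strand ratio ranged from 0.12 to 0.29 and kept its direction, as did miR-143-5p, from -0.20 to -0.11.

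Same-numbered libraries were not stated to be paired, and their deviations from the group means correlated at -0.113, -0.0733 and -0.0568 over 296 miRNAs, with 0 of 3 diabetic libraries closest to their own number. With the replicate block miR-143-3p had a log2 change of 0.07 (limma adjusted p = 0.865), 0 of 4 members were called and 1 of 578 miRNAs was. Over all miRNAs the calls at an adjusted p under 0.05 were 0 in the main limma test (51 at an unadjusted p under 0.05), 8 without the mean-variance trend, 2 in edgeR, 1 in DESeq2 and between 0 and 2 without 1 library, and 0 of these calls were members. Depth limits miR-145-3p most, at 11 to 49 reads a library, and an exact p cannot fall under 0.1 here.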
